A study of Mus musculus with 24 samples.

Results

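CD8 and CD4 T cells were compared with each other when both lacked Pou2af1, using the 4 CD8 and 4 CD4 knockout libraries of a series of 24. POU2AF1 (OCA-B, OBF-1) is a coactivator that binds the octamer factors OCT1 and OCT2 on DNA, and it is best known for its part in B cells and germinal centres. CD4 T cells act mainly as helpers, through cytokines and CD40 ligand, and CD8 T cells mainly as killers, through perforin, granzymes and interferon gamma. The transcription factor THPOK, made from Zbtb7b, holds the CD4 lineage, and RUNX3 the CD8 lineage. The comparison asked which CD8-CD4 differences stood without Pou2af1.

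All cells were sorted from the spleens of 12-week-old C57BL/6 mice and activated in culture for 2 days with antibodies to CD3 and CD28, and poly(A) RNA was sequenced. Knockout cells carried CD4.Cre with Pou2af1 fl/fl; heterozygous cells carried CD4.Cre with Pou2af1 fl/+; wild-type cells had no Cre and are labelled Pou2af1 fl/fl, with +/+ in their titles. Each of the 6 groups had 4 libraries. The Cre transgene is driven by Cd4 regulatory elements, which are active in thymocytes before the lineages part, so it reaches both cell types, and Cre is absent in wild type only. Whether the replicates of a group came from different mice is not in the labels, and the tests therefore rest on the spread among libraries, which may be partly technical. Knockout libraries held 12.04 to 13.88 megacounts in genes in CD4 and 14.4 to 16.61 megacounts in CD8, and mitochondrial genes took 2.88% to 3.28% of counts in CD4 and 3.55% to 3.83% in CD8. Replicate 2 was female by Xist in both knockout cell types and the other knockout libraries were male. In both cell types, replicate 3 was female in wild type and replicates 1 and 2 were female in heterozygotes, and the rest were male. Sex was not part of the fit. In a principal component analysis the first component (66.5% of the variance) parted the cell types and the second (12.4%) parted replicates 1 and 2 from replicates 3 and 4.

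The deleted gene was low in both cell types. Pou2af1 stood at 1.3, 1.59, 3.79 and 2.1 CPM (counts scaled to the library total, TMM-normalised) in the CD4 knockout libraries and at 2.17, 2.44, 1.49 and 0.76 CPM in the CD8 knockout libraries. The groups overlapped, and the CD8-CD4 log2 change was -0.35 (SE 0.36, edgeR quasi-likelihood adjusted p = 0.524). Within replicates 3 and 4 alone it was -1.41 (adjusted p = 0.0118) and within replicates 1 and 2 alone 0.67 (adjusted p = 0.0662). In wild type the mean was 38.4 ± 11.0 CPM in CD4 and 27.7 ± 6.18 CPM in CD8 (SD, n = 4), and in heterozygotes 20.2 ± 4.29 and 15.5 ± 1.4 CPM.

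The lineage markers matched the labels in every knockout library. Cd8a and Cd8b1 encode the CD8 coreceptor chains. Cd8a was at 660, 660, 658 and 672 CPM in CD8 libraries and at 0.145, 0.304, 0.437 and 0.421 CPM in CD4 libraries, a log2 difference of 10.96 (SE 0.23, adjusted p = 1.03e-19). Cd8b1 was at 316, 352, 291 and 303 CPM against 11.2, 8.2, 11.7 and 12.3 CPM, a log2 difference of 4.86 (SE 0.15). Both genes were high in all CD8 libraries, and Cd8b1 kept a low level in all CD4 libraries.

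The CD4 side showed the mirror image. Cd4 was at 495, 520, 542 and 487 CPM in CD4 libraries and at 0.603, 1.39, 0.213 and 0.345 CPM in CD8 libraries, a log2 difference of -9.62 (SE 0.29, adjusted p = 2.06e-16). Zbtb7b was at 106, 115, 80 and 81.5 CPM in CD4 libraries and at 7.6, 16.2, 2.91 and 3.32 CPM in CD8 libraries, a log2 difference of -3.67 (SE 0.34, adjusted p = 4.11e-08). CD8 replicate 2 was the highest CD8 library for both Cd4 and Zbtb7b, and the summed CPM of Cd4, Zbtb7b and Cd40lg was 18.2 there against 4.77 to 8.99 in the other CD8 knockout libraries. The gene counts called in the whole comparison are therefore given below with and without it.

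In cells lacking Pou2af1, 3198 of 13288 genes tested (24.1%) differed between CD8 and CD4 at an adjusted p under 0.05. Of these, 1466 (11.0% of genes tested) were higher in CD8 and 1732 (13.0%) were lower. The counts given below for gene lists are to be read beside these shares. With a log2 change of at least 1 as well, 449 genes (3.38%) were higher and 602 (4.53%) lower. The median size of a called log2 change was 0.63, and the median over all genes tested was -0.003. Called genes whose 4 CD8 and 4 CD4 values did not overlap numbered 2384 (74.5% of those called). Over all 13288 genes tested, called or not, 1280 were without overlap and higher in CD8, and 1494 without overlap and lower. In bulk RNA, a smaller share of cells expressing a gene and less of its RNA per cell cannot be told apart. Without CD8 replicate 2 the count was 3643. Within replicates 1 and 2 alone it was 3252, and within replicates 3 and 4 alone 2647. A fit of only the 8 knockout libraries called 1890 genes, and the same fit with the replicate number as a block 3074.

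**Figure D1:**
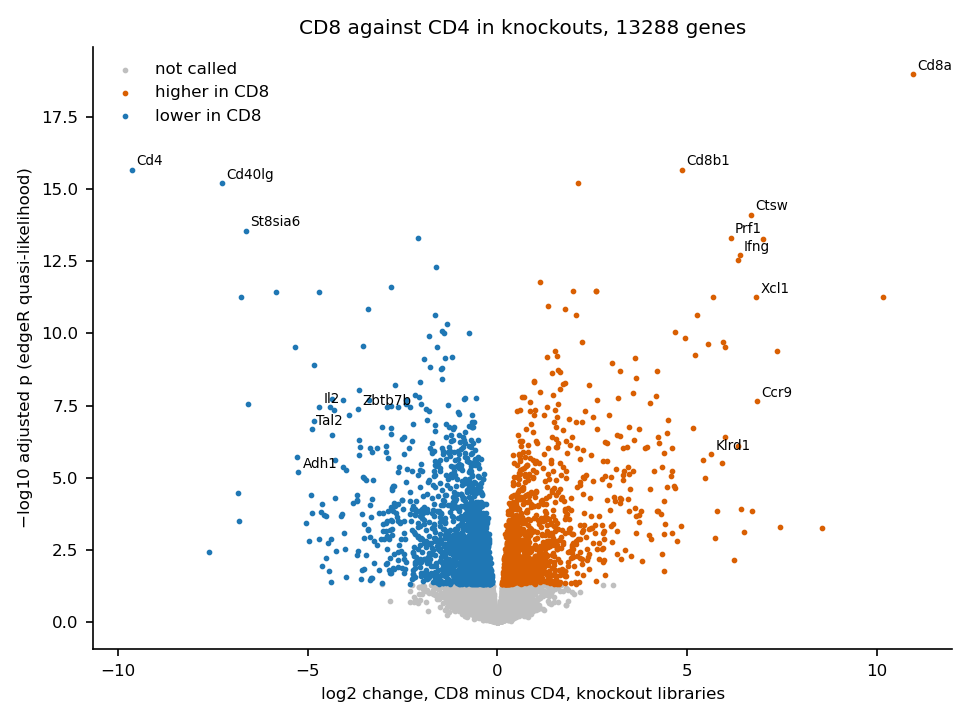
CD8 against CD4 in knockouts for 13288 genes: the log2 change (CD8 minus CD4) on the x axis and the −log10 adjusted p on the y axis. Orange points are the 1466 genes called higher in CD8 and blue points the 1732 called lower; Cd8a (10.96) and Cd4 (-9.62) lie at the outer ends.

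The killing machinery was far higher in CD8 cells. Prf1, which encodes the pore protein perforin, was at 134, 121, 106 and 104 CPM in CD8 libraries and at 1.23, 3.19, 1.17 and 0.926 CPM in CD4 libraries, a log2 difference of 6.15 (SE 0.26, adjusted p = 4.75e-14). Gzmb, the granzyme B protease, was at 2180, 2610, 2750 and 3150 CPM against 28.3, 42.2, 39.1 and 64.5 CPM, a log2 difference of 5.94 (SE 0.40, adjusted p = 1.91e-10). No CD4 library came near a CD8 library for either gene. Ctsw, a cathepsin of killer cells, differed by 6.68 (SE 0.25) on the log2 scale and Nkg7, a granule membrane protein, by 3.19 (SE 0.28).

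The granule list as a whole was more mixed. Of its 22 genes, 16 passed the filter on low counts; 6 were called higher in CD8 and 2 lower, with a median log2 change of 0.45. The lower ones were Fasl, the death ligand (-1.13, adjusted p = 0.0351), and Stx11, a fusion protein of granule release (-0.52, adjusted p = 0.00523). Stx11 passed in all 20 alternative settings and Fasl in 11 of them. The adjusted p of Fasl was 0.124 and 0.099 without CD4 replicate 1 or 2, and 0.115 and 0.106 without CD8 replicate 3 or 4. Gzmd, Gzme, Gzmf, Gzmg, Gzmk and Gzmn were not tested. Granzyme genes are close relatives, and reads shared between copies were not counted for any of them.

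Promoter sequences of 4 of these effector genes are shown because all 4 genes were among the strongly higher ones and hold the RUNX core letters TGTGGT on either strand within 250 bases before the start; they were chosen after the matches were seen. The windows come from RefSeq on GRCm38.p6, are written 5′ to 3′ on the gene's strand, and end at the base before the start. Capitals mark the RUNX core on either strand. The Gzmb window is chr14:56262335-56262584, minus strand, the Prf1 window chr10:61297586-61297835, plus strand, the Nkg7 window chr7:43436888-43437137, plus strand, and the Xcl1 window chr1:164935523-164935772, minus strand.
Gzmb: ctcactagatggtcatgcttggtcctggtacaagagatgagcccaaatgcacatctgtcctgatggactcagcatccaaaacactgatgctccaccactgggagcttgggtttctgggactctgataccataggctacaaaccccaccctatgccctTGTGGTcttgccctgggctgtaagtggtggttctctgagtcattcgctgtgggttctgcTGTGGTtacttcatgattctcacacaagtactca
Prf1: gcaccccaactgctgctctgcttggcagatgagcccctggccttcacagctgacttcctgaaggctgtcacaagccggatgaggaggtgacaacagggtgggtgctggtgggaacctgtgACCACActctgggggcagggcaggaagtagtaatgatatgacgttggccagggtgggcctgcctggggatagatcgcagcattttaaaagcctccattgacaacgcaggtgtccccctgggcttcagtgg
Nkg7: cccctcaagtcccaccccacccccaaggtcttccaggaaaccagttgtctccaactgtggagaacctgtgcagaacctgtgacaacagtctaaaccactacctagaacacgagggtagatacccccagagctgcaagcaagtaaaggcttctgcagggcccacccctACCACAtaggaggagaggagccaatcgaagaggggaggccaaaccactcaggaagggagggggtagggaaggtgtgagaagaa
Xcl1: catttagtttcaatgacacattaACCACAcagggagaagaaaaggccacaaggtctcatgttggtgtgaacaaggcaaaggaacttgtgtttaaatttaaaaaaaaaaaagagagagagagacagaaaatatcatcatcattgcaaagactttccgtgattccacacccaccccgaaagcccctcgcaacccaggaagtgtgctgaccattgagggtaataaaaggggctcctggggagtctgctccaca

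Counting back from -1 at the base before the start, the core begins at -93 and -34 in Gzmb, at -130 in Prf1, at -83 in Nkg7 and at -227 in Xcl1. Across the table, 14.0% of 32851 promoter windows hold the core on either strand, and 11.2% of the 11988 windows of genes tested here do. The share was 19.5% of 406 windows for genes higher in CD8 by a log2 change of at least 1, and 14.6% of 596 windows for genes lower by as much. The octamer ATGCAAAT (ATTTGCAT on the other strand), the letters to which POU2AF1's partners bind, was in 1.28% of windows of genes tested, in 2.22% of the higher set and in 1.34% of the lower set. The 4 windows printed hold no octamer match. A gene may have several windows, and a match describes the letters only. Cd8b1, Cd4, Cd40lg, Ctsw and Klrd1 had no entry.

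CD8 cells also carried the cytokine and chemokines of a killer response. Ifng, which encodes interferon gamma, was at 230, 225, 274 and 256 CPM in CD8 libraries and at 2.17, 5.77, 1.68 and 2.1 CPM in CD4 libraries, a log2 difference of 6.39 (SE 0.29, adjusted p = 1.89e-13). Xcl1, a chemokine that draws cross-presenting dendritic cells, was at 571, 634, 542 and 443 CPM against 1.3, 3.19, 7.72 and 7.32 CPM, a log2 difference of 6.82 (SE 0.37). The groups lay far apart for both genes. Ccl3 was higher in CD8 by 3.15 (SE 0.34) and Ccl9 by 6.34 (SE 0.72) on the log2 scale. Ccl22, a ligand of CCR4, went the other way, at 0.965, 0.975, 0.284 and 0.345 CPM in CD8 and 8.74, 13.6, 19.2 and 10.2 CPM in CD4, a log2 difference of -4.29 (SE 0.53). Of 12 chemokine ligands, 10 were tested, 5 were higher and 2 lower, and the median was 1.11.

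CD4 cells held the helper signals. Cd40lg, through which helper cells license B cells and dendritic cells, was at 150, 135, 165 and 192 CPM in CD4 libraries and at 0.784, 0.627, 1.7 and 1.11 CPM in CD8 libraries, a log2 difference of -7.25 (SE 0.24, adjusted p = 5.95e-16). Il2, the T cell growth factor, was at 150, 123, 114 and 225 CPM against 3.14, 2.58, 9.5 and 8.43 CPM, a log2 difference of -4.70 (SE 0.43, adjusted p = 3.58e-08). No CD8 library reached a CD4 library for either gene. Of 20 helper cytokine genes, only 9 passed the filter on low counts, with 2 called higher (Ifng and the lymphotoxin gene Ltb) and 2 lower (Il2 and Lif). Ltb (0.82, adjusted p = 0.0253) and Lif (-1.04, adjusted p = 0.0402) sat near the threshold: without CD8 replicate 4 the adjusted p of Ltb was 0.100, and without CD8 replicate 2 that of Lif was 0.106.

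**Figure D2:**
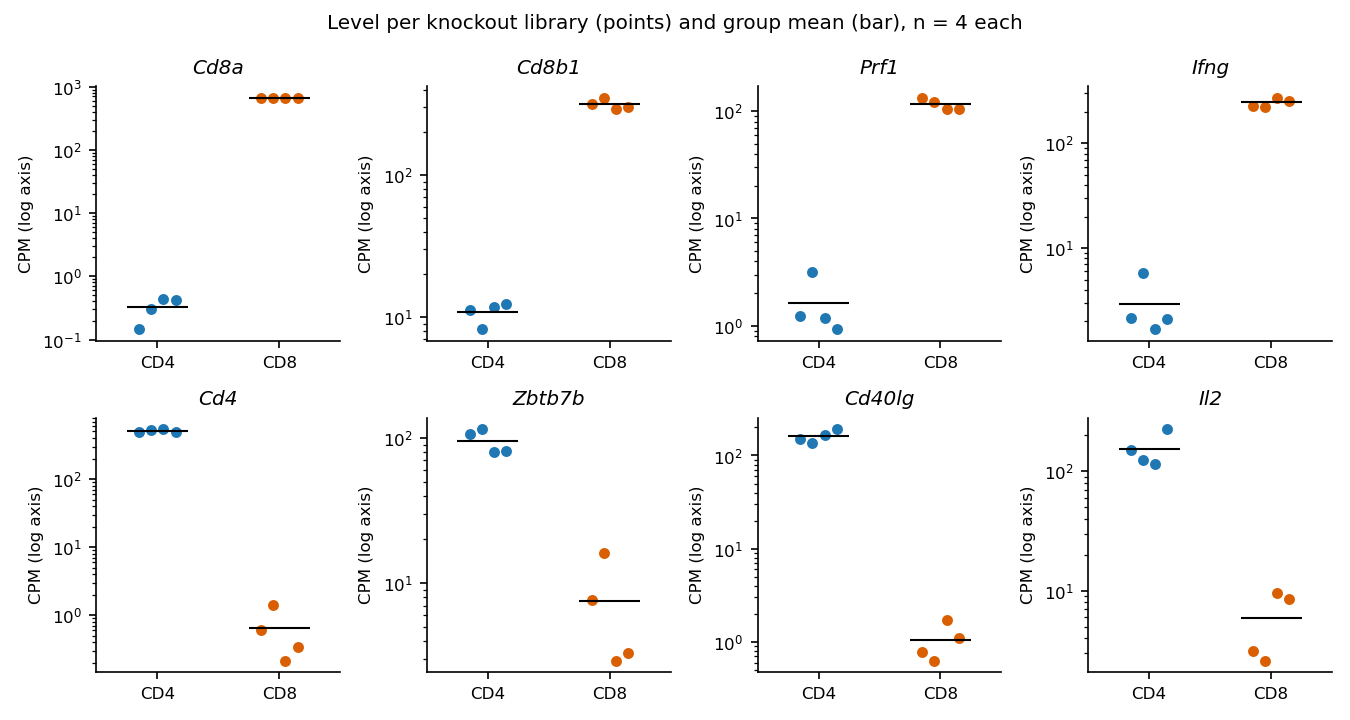
Levels of 8 genes in the 8 knockout libraries, in CPM on log axes, with points for libraries and bars for group means. Each gene parts the cell types with no overlap; CD8 replicate 2 is the high CD8 point for Zbtb7b (16.2 CPM) and CD4 replicate 2 the high CD4 point for Prf1 (3.19 CPM) and Ifng (5.77 CPM).

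Regulators of the lineages followed the coreceptors. Runx1, a relative of Runx3, was at 58.8, 48.5, 52.3 and 60.4 CPM in CD4 and 13.1, 13.3, 12.8 and 12.7 CPM in CD8, a log2 difference of -2.08 (SE 0.09, adjusted p = 4.72e-14). Runx3 had a mean of 55.7 CPM in CD4 and 98.7 CPM in CD8, a log2 difference of 0.83 (SE 0.11). Gata3, which drives helper fates, was lower in CD8 by -1.16 (SE 0.15). Of the 14 coreceptor and lineage genes, all of which were tested, 4 were higher and 7 lower, and Cbfb, Patz1 and Satb1 did not pass.

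Receptors of the natural killer type were a CD8 trait. Klrd1 (CD94), a partner of NKG2 receptors, was at 164, 252, 54 and 47.5 CPM in CD8 and 4.77, 3.19, 0.728 and 1.68 CPM in CD4, a log2 difference of 5.63 (SE 0.67). Klrk1 (NKG2D), an activating receptor for stress ligands, was at 467, 625, 224 and 232 CPM against 15, 41.2, 2.84 and 5.81 CPM, a log2 difference of 4.57 (SE 0.62, adjusted p = 8.73e-06). Within each cell type, replicates 1 and 2 were above replicates 3 and 4 for both genes. Of 15 killer lectin-like genes, 10 passed the filter and 9 were called higher in CD8, with a median of 3.36. Klra3 had 3 counts over the 4 CD4 libraries and 86 over the 4 CD8 libraries, a ratio of 25.3 (95% counting interval 8.39 to 125). The Klra and Klrc genes are close copies, so their counts are uncertain. Defining genes of natural killer cells summed to 0.583 to 3.04 CPM in CD4 and 1.13 to 1.8 CPM in CD8.

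Costimulatory molecules of the TNF family leaned to CD4. All 16 were tested, with 9 lower in CD8, 2 higher and a median of -0.55. Tnfrsf4 (OX40) was at 341, 319, 312 and 309 CPM in CD4 and 117, 160, 126 and 123 CPM in CD8, a log2 difference of -1.28 (SE 0.13). Tnfsf11 (RANKL) was lower by -2.04 (SE 0.27) and Tnfrsf25 (DR3) by -2.94 (SE 0.33). Tnfrsf9 (4-1BB), a costimulator well known on CD8 cells, was higher by 0.75 (SE 0.11, adjusted p = 3.95e-05).

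Receptors of the CD28 and inhibitory families split. Of 17 tested, 3 were higher and 6 lower. Btla, an inhibitory receptor, was at 458, 586, 664 and 619 CPM in CD4 and 114, 120, 185 and 151 CPM in CD8, a log2 difference of -2.03 (SE 0.16, adjusted p = 4.98e-09). Crtam, an adhesion receptor of activated CD8 cells, was higher by 3.63 (SE 0.26), and Cd160 by 3.65 (SE 0.29). Cd5, a damper of receptor signalling, was lower by -0.94 (SE 0.13). Btla, Ifng and Il2 stand among 11 genes listed as POU2AF1 partners or as its targets in T cells, of which 8 were tested, 2 were higher and 3 lower. Pou2f1, which encodes OCT1, did not pass (-0.09, adjusted p = 0.602), and Pou2f2, which encodes OCT2, was lower by -0.33 (adjusted p = 0.0198). Pou2f2 passed in 13 of 20 alternative settings; without CD4 replicate 3, CD4 replicate 4 or CD8 replicate 1 its adjusted p was 0.0617, 0.0922 and 0.0662.

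Receptors for homing were split by direction. Of 21 genes, 17 were tested, 10 were higher and 4 lower, with a median of 0.86. Ccr9, the gut-homing receptor, was at 2.96, 2.51, 3.62 and 3.73 CPM in CD8 libraries, and the 4 CD4 libraries held 1 count between them; the ratio was 168 with a 95% counting interval that began at 29.8. Ccr8 was at 37.9, 25.2, 18.6 and 23.2 CPM in CD4 and 1.99, 0.696, 1.28 and 0.829 CPM in CD8, a log2 difference of -4.42 (SE 0.41). Gpr183 (EBI2), an oxysterol receptor that positions helper cells near B cells, was lower by -1.85 (SE 0.18), and Selplg, the ligand of P-selectin, was higher by 0.99 (SE 0.09). Of 16 integrin subunits, 13 were tested, 5 were higher and 1, Itgb3, was lower (-1.43, SE 0.23). Itgae, the CD103 chain that binds E-cadherin, was higher by 2.58 (SE 0.49).

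Cytokine receptors and fate factors followed the same division. Il6ra was at 78.3, 96.6, 93.1 and 80 CPM in CD4 and 11.9, 15.6, 14.1 and 8.84 CPM in CD8, a log2 difference of -2.79 (SE 0.14, adjusted p = 2.49e-12). Of 12 genes for the IL-6 receptor and type 17 regulation, 10 were tested, 5 were lower, among them Il6ra, Maf and Rora, and 0 higher. Both IL-18 receptor chains were higher in CD8, Il18r1 by 2.32 (SE 0.22) and Il18rap by 2.0 (SE 0.11), and so was Eomes, a T-box factor of killer and memory cells, by 1.80 (SE 0.32). Tbx21, which encodes T-bet, did not pass, with means of 69.9 CPM in CD4 and 68.7 CPM in CD8 (log2 difference -0.02, adjusted p = 0.939). Of 13 type 1 regulators, 12 were tested, 7 were higher and 2 lower.

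Of 12 regulatory T cell genes, 3 were higher, among them Ikzf2 (Helios; 2.18, SE 0.27), and 4 lower, among them Itgb8 (-2.62, SE 0.43), a transforming growth factor beta activator. Il7r, the survival receptor of resting and memory cells, was at 187, 287, 84 and 119 CPM in CD8 and 47.5, 29.7, 9.18 and 19.8 CPM in CD4, a log2 difference of 2.67 (SE 0.47). Among 16 naive and memory factors 5 were higher and 4 lower; Id3 and Bach2 were lower by -1.16 (SE 0.18) and -0.80 (SE 0.14). Bcl2, a survival gene on the interleukin 2 list, was higher by 1.21 (SE 0.27). Of 15 interleukin 2 pathway genes 3 were higher and 3 lower, beside 11.0% and 13.0% of all genes tested. Of 15 type 2 and follicular helper regulators, 12 were tested, 3 were higher and 5 lower.

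With Gm and Rik symbols set aside, the most extreme differences outside these roles were as follows. St8sia6, a sialyltransferase, was at 76, 52, 73.2 and 95.4 CPM in CD4 and 0.965, 0.905, 0.709 and 0.345 CPM in CD8, a log2 difference of -6.63 (SE 0.27). Tal2, a basic helix-loop-helix gene, was lower in CD8 by -4.88 (SE 0.50), Dnah7a by -6.57 (SE 0.60) and Adh1, an alcohol dehydrogenase, by -5.24 (SE 0.70). On the CD8 side, Plac8 was at 140, 185, 105 and 158 CPM against 2.1, 2.13, 1.75 and 1.18 CPM in CD4, a log2 difference of 6.34 (SE 0.29), and Samd3 differed by 7.0 (SE 0.29). Cables1, a cell cycle regulator, was higher by 6.00 (SE 0.41). Sema6d had no count in any CD4 knockout library and 1.75, 1.04, 5.32 and 4.9 CPM in CD8, at least 13.9-fold higher when each CD4 library is set to the floor of 3 counts. Ly6c1, Shtn1, Hap1, Cacna2d1 and Smim10l2a were lower in CD8 and Adgrg5 higher, without overlap. Of 15 sialyltransferases, 13 were tested, 2 were higher and 5 lower.

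The values of 5 genes lying near lineage genes are given here; they were picked after their values were seen, and the other neighbours were not counted. Gm44174 (chr6:71353035-71373284, a lincRNA on GRCm38 that ends just before Cd8a) was at 9.83, 9.12, 9.57 and 10.8 CPM in CD8 and had no count in CD4, at least 42.9-fold higher against the floor of 3 counts. Smyd1, beside Cd8b1, was higher by 4.67 (SE 0.30). Gm14718, upstream of Cd40lg on chromosome X, was at 17.1, 11.2, 13.9 and 19.5 CPM in CD4 and 0.181, 0.209, 0 and 0.138 CPM in CD8, a log2 difference of -6.75 (SE 0.37). Gm12532, near Il2, had 51 counts over the CD4 libraries and none in CD8. Ifngas1, a lincRNA near Ifng, had 72 counts over the CD8 libraries and 1 in CD4. No source used here gives the strand setting of the counting, so reads that belong to a neighbour or an antisense gene cannot be told apart.

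Interferon-stimulated genes were lower in CD8 than in CD4 knockouts. Of 32 such genes, 31 were tested; 13 were called lower and 0 higher, and the median log2 change was -0.73. Ifi44 was at 42.4, 38.8, 28.1 and 81.9 CPM in CD4 and 5.91, 10.5, 2.55 and 8.43 CPM in CD8, a log2 difference of -2.80 (SE 0.51, adjusted p = 0.000304). Ifih1, the RNA sensor MDA5, was lower by -1.90 (SE 0.32) and Isg20, an RNA exonuclease, by -1.85 (SE 0.32), and neither overlapped between cell types. Immediate early genes leaned the same way, with 7 of 19 lower and 1 higher; Nr4a1, which reports receptor signalling, was lower by -0.82 (SE 0.15), Junb by -0.58 (SE 0.12) and Fos by -1.39 (SE 0.29).

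Cell cycle and oxidative phosphorylation genes leaned to CD8 by small amounts, with log2 changes above 0 in 28 of 32 and 28 of 30. Over all genes tested the median log2 change was -0.003, and 11.0% were called higher and 13.0% lower. Of 32 cell cycle genes, 13 were called higher in CD8 and 0 lower, with small changes: the median was 0.17, and Ccnb2 was at 87.2, 82.4, 80.8 and 82.1 CPM in CD8 against 59.1, 60.6, 73.4 and 63.2 CPM in CD4, a log2 difference of 0.38 (SE 0.07). Of 30 oxidative phosphorylation genes, 9 were higher and 0 lower, again with a median of 0.17; Sdhb, a subunit of complex II, was higher by 0.42 (SE 0.07). Mitochondrial counts were also a larger share of CD8 libraries, and their part in this result was not tested. Near the lower end, 1 of 28 cholesterol and fatty acid genes was called (Idi1, -0.48, adjusted p = 0.0361), 1 of 24 glycolysis and hypoxia genes (Hif1a, -0.73, SE 0.15), 1 of 15 amino acid transporters (Slc43a1, higher by 1.54, SE 0.17) and 2 of 22 MHC class I genes (Psmb9 and H2-T23, both lower), against 24.1% of genes tested. Idi1 and H2-T23 passed in 9 of 20 alternative settings each, and Psmb9 in 14. Of 18 p53 targets, 17 were tested, 1 was higher and 4 lower. Of 23 T cell receptor and signalling genes 4 were higher and 4 lower, beside 11.0% and 13.0% of all genes tested. Zap70 was at -0.63 (SE 0.11) and Cd3g at 0.52 (SE 0.11).

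**Figure D3:**
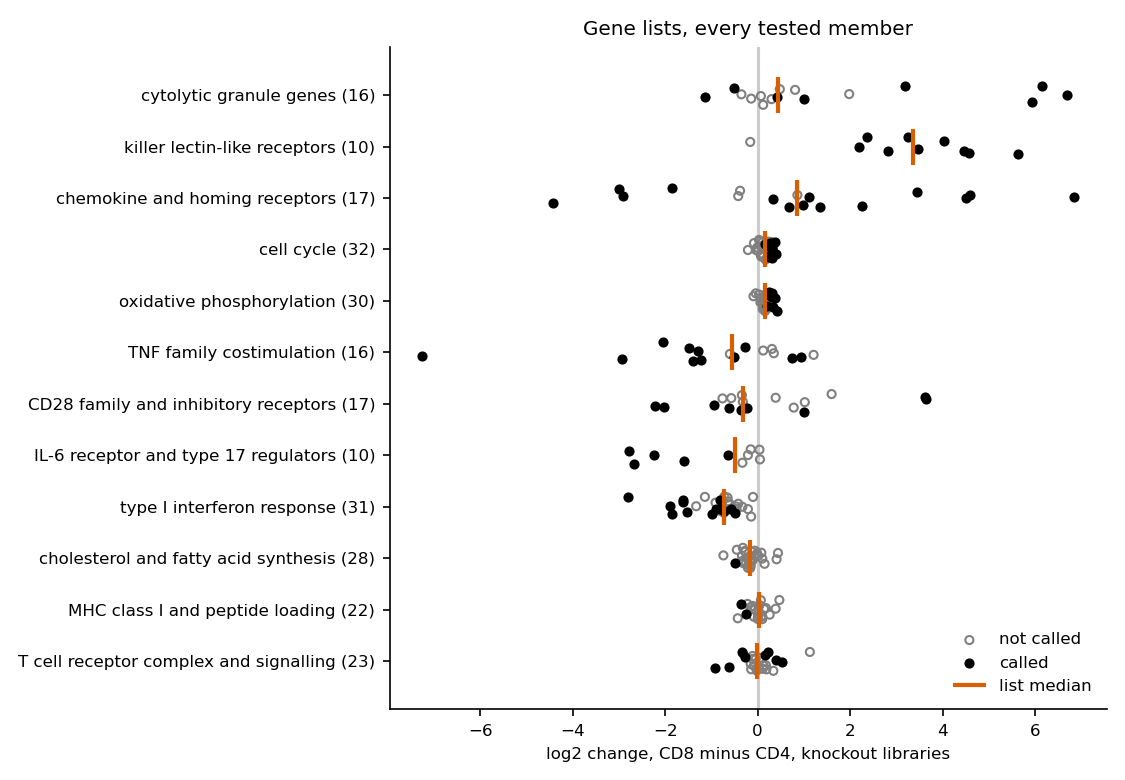
The log2 change (CD8 minus CD4, knockout libraries) of every tested member of 12 gene lists, with the number tested after each name; filled points passed the test and orange bars are list medians. Killer lectin-like receptors (median 3.36) lie right of 0, interferon-stimulated genes (-0.73) and TNF family genes (-0.55) left of it, and cell cycle genes (0.17) close to it.

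Markers of some other cells were near 0 and others were not. The 10 B cell genes summed to 141 to 217 CPM in CD4 and 373 to 411 CPM in CD8, nearly all of it Ighm, at 124 to 188 CPM against 335 to 387 CPM (log2 difference 1.32, SE 0.10). Cd79b, a chain of the B cell receptor, was at 0.145 to 0.947 CPM in CD4 and 3.52 to 7.17 CPM in CD8. Ighd was at 3.04 to 6.34 CPM in CD4 and 9.96 to 14.5 CPM in CD8. Cd22 was at 0.217 to 2.04 against 0.851 to 3.62 CPM and Cd79a at 0.723 to 1.89 against 1.09 to 1.95 CPM, both with overlap. Some B cell genes went the other way. Ebf1 was at 0.947 to 1.67 CPM in CD4 and 0.276 to 0.835 CPM in CD8. With overlap, Blnk was at 0.939 to 1.75 against 0.142 to 0.975 CPM and Pax5 at 2.31 to 5.61 against 0.425 to 3.55 CPM. Of the B cell genes, 3 were called higher in CD8 and 1 lower. Spib, an ETS factor of B and dendritic cells, was higher in CD8 by 1.45 (SE 0.36). Macrophage genes summed to 1.29 to 2.6 CPM in CD4 and 2.44 to 4.25 CPM in CD8, neutrophil genes to at most 0.0709 CPM and red cell genes to at most 0.348 CPM in any knockout library. Plasma cell genes summed to 106 to 143 CPM in CD4 and 83.1 to 205 CPM in CD8, but Jchain was at most 0.0842 CPM in CD4 and 0.213 CPM in CD8. Gamma delta T cell genes summed to at most 2.65 CPM and platelet genes to at most 1.01 CPM. Dendritic cell genes summed to 16.5 to 23.7 CPM in CD4 and 4.18 to 18.9 CPM in CD8, with Ccl22 among them. The part of such cells in the results was not tested.

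The same contrast was then set beside the other genotypes, which share no library with it. In wild type 4149 genes (31.2%) were called, 14.7% of genes tested higher and 16.6% lower, and in heterozygotes 4643 (34.9%), 17.1% higher and 17.8% lower. Of the 1466 genes higher in CD8 knockouts, 1162 were called higher in wild type (79.3% of the knockout calls and 59.6% of the wild-type calls), and of the 1732 lower genes 1450 were called lower (83.7% and 65.9%). No gene was called in opposite directions in knockouts and wild type; against heterozygotes 1 gene was, Junos, at 0.96 in knockouts and -1.13 in heterozygotes (adjusted p = 0.0403 and 0.0176; the difference of 2.09 had an adjusted p of 0.93), named after its values were seen. Junos had only 4 to 8 counts in CD4 and 9 to 18 in CD8 knockout libraries, and its knockout call held in 6 of 18 alternative settings. Across the 13288 genes, the log2 changes correlated with a Pearson r of 0.925 with wild type and 0.887 with heterozygotes. This is a description across genes that are not independent. In all 3 genotypes, 2344 genes (73.3% of knockout calls) were called in 1 direction. The genes called in wild type and not in knockouts numbered 1537, and 1508 of them had the same sign in knockouts.

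The lineage and effector genes kept their direction in the 3 genotypes. The log2 difference of Cd4 was -9.62 in knockouts, -9.10 in wild type and -9.71 in heterozygotes, that of Cd40lg was -7.25, -6.86 and -6.68, and that of Runx1 -2.08, -2.0 and -2.13. Prf1 differed by 6.15, 6.70 and 5.45, Ifng by 6.39, 7.08 and 5.67, and Il2 by -4.70, -4.53 and -4.87. For Btla the values were -2.03, -2.0 and -1.81. Zbtb7b differed by -3.67, -4.40 and -4.67; its knockout minus heterozygote difference was 1.00 (95% interval 0.02 to 1.99, edgeR unadjusted p = 0.0462, adjusted p = 0.937) and its knockout minus wild type difference 0.73. Tested as a difference between genotypes, none of these 8 passed (adjusted p from 0.937 to 0.998 in knockout minus heterozygote and 1 in knockout minus wild type). How much room was left differed by gene: the 95% interval of knockout minus wild type ran from -0.34 to 0.16 for Runx1 and from -0.49 to 0.44 for Btla, but from -1.55 to 0.49 for Cd4, from -1.53 to 0.15 for Ifng and from -1.37 to 1.02 for Il2.

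**Figure D4:**
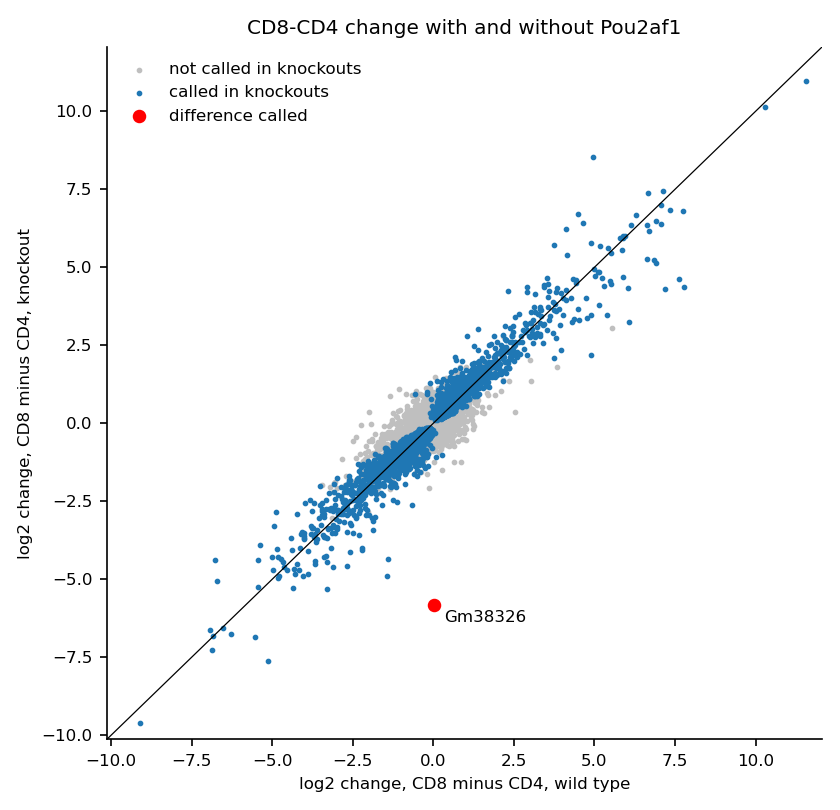
The CD8-CD4 log2 change of each gene in knockouts (y axis) against that in wild type (x axis); blue points were called in knockouts and the line marks equal change. Points follow the line (r = 0.925), and Gm38326 alone, in red, passed the test of the difference.

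A single gene passed the test of the difference between knockouts and wild type, and none that between knockouts and heterozygotes. The count was 1 of 13288 (0.00753%) for knockout minus wild type, with 228 genes (1.72%) at an unadjusted p under 0.05, and 0 for knockout minus heterozygote, with 694 (5.22%) at an unadjusted p under 0.05 and 0 by DESeq2. With the replicate number as a block, knockout minus heterozygote called 1 gene, Ifit3b. The 95% interval of the knockout minus wild type difference lay within -1 and 1 for 9797 genes (73.7%), and its median half-width was 0.4. For the 1051 genes called with a log2 change of at least 1, that interval was within -1 and 1 for 286 and reached past -1 or 1 for the rest. The genes called in knockouts and in neither other genotype numbered 291, and 0 of them had a called difference from wild type.

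The gene that differed was Gm38326, a lincRNA at chr3:60788361-60794730 on GRCm38. It was at 7.66, 6.46, 6.99 and 7.24 CPM in CD4 knockouts and at 0.181, 0, 0.142 and 0.138 CPM in CD8 knockouts. In heterozygotes it was at 9.4, 7.01, 7.55 and 8.72 CPM in CD4 and 0.0744 to 0.21 CPM in CD8. In wild type it was at 0.0713 to 0.271 CPM in CD4 and 0.158 to 0.255 CPM in CD8, with 1 to 6 counts a library. The gene was thus counted above a trace in CD4 cells of both genotypes that carry CD4.Cre, and it did not separate knockouts from heterozygotes. The CD8-CD4 log2 change was -5.82 (SE 0.31) in knockouts and -5.92 in heterozygotes; the difference from wild type was -5.82 (adjusted p = 2.26e-05) and that from heterozygotes 0.10 (adjusted p = 1). Cre and the loss of Pou2af1 cannot be told apart in knockout minus wild type.

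A neighbour was also highest in CD4 cells of both genotypes that carry CD4.Cre. Gm33707, a processed pseudogene at chr3:60769887-60770455 picked after its values were seen, was at 1.45, 1.75, 3.35 and 2.36 CPM in CD4 knockouts and 0.0696 to 0.138 CPM in CD8 knockouts, a log2 difference of -4.35 (SE 0.47, adjusted p = 3.32e-07). It was at 1.4 to 1.78 CPM in CD4 heterozygotes and at 0 to 0.214 CPM in CD4 wild type. The other genes of lowest p in knockout minus wild type, 2610301B20Rik (-0.39) and Gm45223 (1.5), did not pass (adjusted p = 1). Nor did those in knockout minus heterozygote, Junos (2.09), Cxcl10 (2.80) and Akr1b8 (2.85, all with an adjusted p of 0.93).

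Gene groups whose counts differed between genotypes did so without a passing test of the difference in the fit without the replicate block. For interferon-stimulated genes, 13 of 31 were lower in CD8 in knockouts, 20 in wild type and 31 in heterozygotes, with medians of -0.73, -1.02 and -2.04. All 31 had a negative change in each genotype and a knockout minus heterozygote difference above 0, with a median difference of 1.40. In that test 25 of the 31 had an unadjusted p under 0.05, against 5.22% of all genes tested, and 0 passed after adjustment. The 31 genes are not independent of each other, so that share is a description only. Ifit3b has a close copy in Ifit3, so its counts are uncertain. It was at 3.97, 1.75, 3.06 and 6.06 CPM in CD4 knockouts and 2.53, 1.46, 1.7 and 3.25 CPM in CD8 knockouts. It differed between cell types by -0.72 in knockouts (adjusted p = 0.262; -0.69, adjusted p = 0.0216 with the replicate block), by -0.72 in wild type and by -3.17 in heterozygotes (knockout minus heterozygote 2.45, adjusted p = 0.93; 2.5, adjusted p = 0.0264 with the replicate block).

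In 1 stress gene, Ddit3, leaving out a single library changed the call. Of 24 unfolded protein and integrated stress genes, 3 were higher in CD8 knockouts (Canx, Creld2 and Sdf2l1, all chaperone genes of the endoplasmic reticulum, which passed in 16, 9 and 8 of 20 alternative settings) and 0 lower, beside 11.0% and 13.0% of genes tested. CD8 replicate 2 was the lowest CD8 knockout library for Canx, Creld2 and Sdf2l1. Sdf2l1 was at 29.9 CPM there, against 71.8, 83.0 and 84.5 CPM in the other CD8 and 40.1 to 49.1 CPM in CD4 knockout libraries. Wild type had 8 higher and 9 lower, and heterozygotes 4 and 10. Ddit3 (CHOP), a stress-induced factor picked after its values were seen, was at 27.3, 34.8, 10.3 and 15.3 CPM in CD4 and 13.1, 40.3, 7.52 and 9.05 CPM in CD8 knockouts, so the groups overlapped through CD8 replicate 2. Its log2 difference was -0.33 (adjusted p = 0.622) with all libraries and -1.14 (adjusted p = 0.0194) without that library, against -1.81 in wild type and -1.57 in heterozygotes. Ddit3 passed in 1 of 20 alternative settings, that without CD8 replicate 2 alone. The knockout minus wild type difference was 1.49 (adjusted p = 1).

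**Figure D5:**
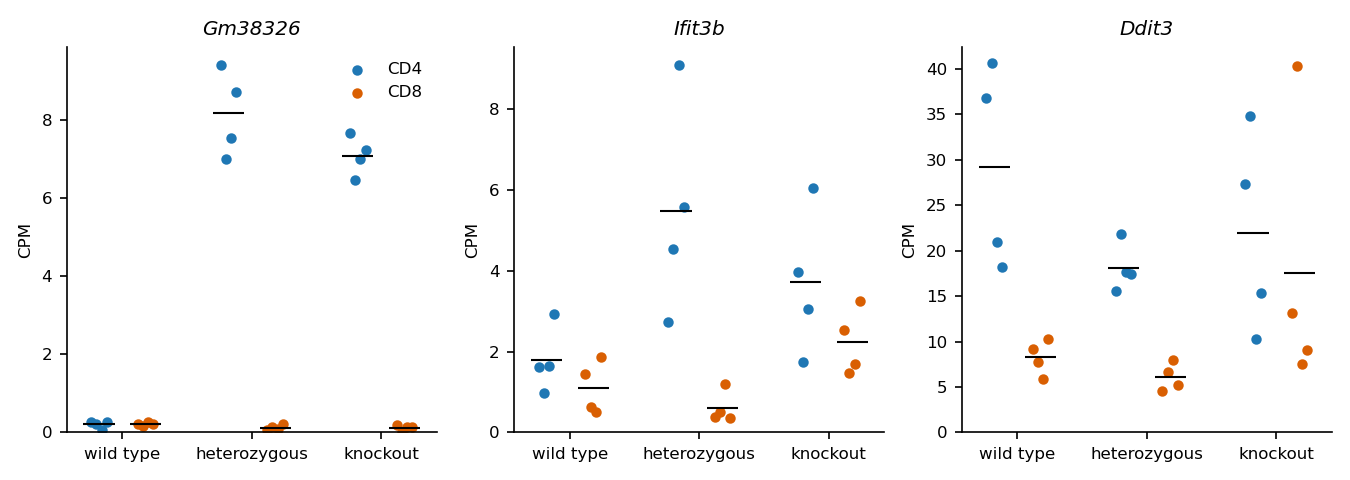
Levels of Gm38326, Ifit3b and Ddit3 in all 24 libraries, in CPM, by genotype; blue points are CD4 libraries, orange points CD8 libraries and bars group means of 4. Gm38326 lies between 6.46 and 9.4 CPM in CD4 heterozygous and knockout libraries and at or under 0.271 CPM elsewhere, and the high CD8 knockout point for Ddit3 (40.3 CPM) is replicate 2.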

How the data were processed

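Poly(A) RNA of sorted, activated mouse T cells was sequenced in 24 libraries. Per the submitters' processing notes, Trimmomatic 0.35, STAR 2.7.1a, DESeq2 1.26.0 and the genome build GRCm38 were used; the sources used here give neither annotation nor strand settings. The authors deposited raw whole-number counts per gene for 55401 genes. The summary lines of unmapped, multimapping and unassigned reads (32.23% to 33.52% of a knockout library's entries) were left out. A floor of 3 counts was 0.181 to 0.249 CPM in knockout libraries; floors and counting intervals cover counting error only. No 2 libraries of a group were alike within sampling noise (of 36 pairs, the closest had a chi-square of 2.62 per degree of freedom).

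All 24 libraries were fitted in 6 groups with edgeR 4.0.16 (R 4.3.3): filterByExpr, TMM, quasi-likelihood F test, 2-sided, 18 residual degrees of freedom, Benjamini-Hochberg adjustment over 13288 genes, called at adjusted p under 0.05. The fit was tested on simulated data. SE is the log2 change divided by the root of F. CPM are TMM-scaled. Genes named were Pou2af1, 6 markers and, in each direction, the 12 most changed called genes of at least 1 CPM and no overlap. That ranking set aside antigen receptor segments and provisional symbols of the Gm and Rik type. It therefore passed over Gm44174 (knockout log2 change 10.15), Gm14718 (-6.75) and Gm38326 (-5.82). Also named were up to 4 members of lowest p per list, and those of lowest p per difference. All others were added after their values were seen. Members and lists were chosen with earlier results of these data known. Same-numbered CD4 and CD8 libraries deviated together (r 0.354, 0.451, 0.375 and 0.356 in knockouts, 0.147 to 0.397 in the other genotypes). The number was therefore used as a block, though the labels do not say that it pairs libraries. Unlike numbers reached 0.313 in knockouts, and some were closer than like ones. Wild-type CD4 replicate 2 had r 0.368 with CD8 replicate 1 and 0.295 with CD8 replicate 2. Heterozygous CD4 replicate 4 had r 0.284 with CD8 replicate 3 and 0.147 with CD8 replicate 4. DESeq2 1.42.0, other scalings, filters and left-out libraries were alternatives. Unassigned samples: none; every deposited column of raw counts was used, and a deposited normalized table was not used.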

Additional observations from a re-analysis of the deposited data

Results flagged for a closer look

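Groups of 4 knockout libraries were checked for 1 library far from the others, 88 groups in all, and chance alone marks about 1 in 20 of them; 6 were marked. Cd8a stood at 672.0 CPM in CD8 replicate 4 against 658 to 660 CPM in the other CD8 libraries. Prf1 and Ifng were high in CD4 replicate 2, at 3.19 and 5.77 CPM, against 0.926 to 1.23 CPM and 1.68 to 2.17 CPM in the other CD4 libraries. 2610301B20Rik was at 16.5 CPM in CD8 replicate 3 against 15.5 to 15.7 CPM. Ddit3 was at 40.3 CPM in CD8 replicate 2 against 7.52 to 13.1 CPM. Pou2f1 was at 87.0 CPM in the same library against 60.6 to 62.7 CPM in the other CD8 libraries. Gm38326 stood out because its CD8-CD4 change differed between knockouts and wild type by -5.82 on the log2 scale in the test of the difference.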

How the results depend on the processing

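With 4 libraries a group and 12.04 to 16.61 megacounts a knockout library, small differences of low genes were not detectable. The 3198 knockout calls became 1890 (829 higher, 1061 lower) when only the 8 knockout libraries were fitted; the other settings gave 2227 to 3871, with 2227 to 3643 (993 to 1756 higher, 1217 to 1887 lower) on leaving out 1 library or 1 number. The replicate block over 24 libraries gave 3871. Leave-one-out settings gave 2883 to 4025 calls in wild type (1316 to 1874 higher, 1567 to 2151 lower) and 3270 to 4426 in heterozygotes (1563 to 2167 higher, 1707 to 2259 lower), and replicates 3 and 4 alone called 1216 genes higher in wild type. Knockout minus wild type called 1 gene (0 higher, 1 lower) in each setting that left out libraries and 0 within replicates 1 and 2 or within replicates 3 and 4, where Gm38326 kept -5.76 and -5.84; its value was -6.12 to -5.44 on leaving out any 1 library or number. Knockout minus heterozygote called 0 genes whenever libraries were left out and 1 (higher) with the replicate block. Among the genes named in the results, the block over 24 libraries made Ifit3b pass in knockouts and changed no other call, and the block over the 8 knockout libraries also lost Sdf2l1 and Gm45223; Cd3g, Ccnb2 and Rora lost theirs within replicates 3 and 4 alone.

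Genes without a call in the fit as reported turned sign in some settings, and the cause was not tested. Pou2af1 was called lower in 1 of 20 alternative settings, replicates 3 and 4 alone (-1.41, adjusted p = 0.0118); it was 0.67 in replicates 1 and 2 alone and ran from -0.55 to 0.06 on leaving out 1 library and from -0.68 to 0.13 on leaving out 1 number, above 0 without CD4 replicate 3 (0.06) and without number 3 (0.13). Cxcl10 was -0.32 in replicates 1 and 2 alone and ran from -0.20 to 0.41 on leaving out 1 library and from -0.14 to 0.50 on leaving out 1 number, below 0 without CD4 replicate 3, CD8 replicate 2, CD8 replicate 4 or number 4 (-0.14). Akr1b8 was -0.87 in replicates 3 and 4 alone and ran from -0.50 to 0.50, below 0 without CD8 replicate 2 or number 2 (-0.36). Tbx21 was 0.01 and 0.0 in the block fits and 0.22 in replicates 3 and 4 alone, and ran from -0.13 to 0.16 on leaving out libraries, above 0 without CD4 replicate 2 (0.16), CD8 replicate 1 (0.03) or number 2 (0.12).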
